A study of Homo sapiens with 9 samples.

Results

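The enzymes that supply deoxynucleotides for DNA synthesis were followed in HCT116 cells, an established line of human colorectal carcinoma. These 9 genes were chosen by their known function, with earlier results of these data known. They were RRM1, RRM2, RRM2B, TYMS, TK1, DTYMK, DUT, UNG and SAMHD1, out of 33861 genes in the table. RNA was sequenced from NC cells, the study's control, from cells given 100 ng/mL activin A for 5 days (Activin), and from cells given the same activin A course and then 20 ng/mL HGF for another 5 days (Activin+HGF), with 3 libraries in each group. All groups were this single line, grown in DMEM with fetal bovine serum, and all libraries were depleted of ribosomal RNA. What the NC cells received in place of activin, and how long they were cultured, are not given in the sources used here. The Activin+HGF cells were treated for 5 days longer than the Activin cells, and whether activin A stayed during HGF is not stated. HGF, the added days and any end of activin A therefore cannot be told apart. The labels do not say whether the 3 libraries of a group came from separate cultures, so p-values measure only the spread between these libraries, which may be technical.

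Ribonucleotide reductase converts ribonucleotides to deoxyribonucleotides. It joins the large subunit RRM1 to a small subunit, either RRM2, which cycling cells make in S phase, or RRM2B, a p53 target that serves repair and resting cells. Thymidylate comes either from dUMP through thymidylate synthase (TYMS) or from salvaged thymidine through thymidine kinase (TK1), and thymidylate kinase (DTYMK) phosphorylates the product of both routes. The dUTPase DUT removes dUTP before it can enter DNA, the glycosylase UNG cuts out uracil that did enter, and SAMHD1 hydrolyses deoxynucleoside triphosphates. Proliferating tumour cells need the synthetic enzymes during S phase, and fluoropyrimidines used against colorectal cancer act on TYMS.

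Against NC, the activin libraries had 2.68 to 3.31 times less mRNA of TYMS, RRM1 and UNG, and these 3 genes were also lower in the Activin+HGF libraries. RRM2, RRM2B, DUT and SAMHD1 did not pass the test in any of the 3 comparisons. The upstream sequences of TYMS, RRM1 and UNG are shown because these 3 genes fell in both comparisons with NC. They come from RefSeq on GRCh38.p14 and are written 5′ to 3′ on the strand of the gene, the plus strand in all 3. Each holds 140 bases upstream of an annotated start. The stretch of RRM1 ends directly before its start. That of TYMS ends 49 bases short of its start, and those of UNG end 23 and 54 bases short. Capitals mark a CCAAT box (CCAAT) or a GC box (GGGCGG), either on the strand shown or as its reverse complement.
TYMS (chr18:657464-657603): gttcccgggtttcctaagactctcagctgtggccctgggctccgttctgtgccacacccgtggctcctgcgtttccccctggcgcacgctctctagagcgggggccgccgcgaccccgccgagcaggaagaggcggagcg
RRM1 (chr11:4094545-4094684): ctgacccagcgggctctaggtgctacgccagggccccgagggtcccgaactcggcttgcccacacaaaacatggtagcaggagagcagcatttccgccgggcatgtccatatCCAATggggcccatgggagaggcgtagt
UNG, upstream start (chr12:109097434-109097573): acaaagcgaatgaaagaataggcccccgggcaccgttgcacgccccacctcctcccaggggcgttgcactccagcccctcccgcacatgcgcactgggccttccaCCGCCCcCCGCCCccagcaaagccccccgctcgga
UNG, downstream start (chr12:109097978-109098117): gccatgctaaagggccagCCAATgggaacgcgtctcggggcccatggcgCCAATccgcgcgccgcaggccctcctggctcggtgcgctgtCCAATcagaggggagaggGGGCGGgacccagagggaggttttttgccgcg

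The stretch of TYMS held none of these letters, that of RRM1 held a single CCAAT box, and the stretch before the downstream start of UNG held 3 CCAAT boxes and 1 GC box. For the search, the 250 bases before each RefSeq start were read on both strands, which gave 14 windows for 8 of the 9 members. An E2F-like motif (TTTNGCGC) was in 1 of the 14 windows, before a start of DUT, and in 1.51% of all 35116 windows of the table. A CCAAT box was in 7 of the 14 member windows, against 32.0% of all windows, and a GC box in 10 of 14, against 42.6%. These matches describe letters in the windows, and several windows of 1 gene overlap or lie close together.

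The libraries held 57453977 to 77016167 counts. Counts were scaled by the trimmed mean of M-values (TMM) and are given as CPM, counts divided by the size of the scaled library, which compare 1 gene between libraries. Levels of different genes are compared in FPKM, which the authors normalised to gene length and library size. The TMM factors ran from 0.783 in Activin+HGF replicate 1 to 1.17 in Activin replicate 1. Without this scaling the median log2 fold change of all genes tested moved to 0.10 for Activin against NC, to −0.38 for Activin+HGF against Activin and to −0.30 for Activin+HGF against NC. The epithelial markers EPCAM, CDH1, KRT8, KRT18 and KRT19 had at least 4572 counts in every library, while the intestinal markers CDX1 and VIL1 had at most 19. Markers of blood, endothelial, fibroblast and liver cells summed to 3.26 to 3.98 FPKM in NC, 10.3 to 13.1 in Activin and 8.91 to 11.4 in Activin+HGF. Among these 10 markers PTPRC and CD3E had at most 11 counts in any library, while CD68 and COL1A1 reached 1416 and 3968. Their part in the differences described here was not tested.

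In the NC libraries, TK1 had the highest level per length, 97.4 ± 9.06 FPKM (SD, n = 3), followed by TYMS at 76.8 ± 2.43 FPKM, UNG at 41.6 ± 0.987 FPKM and RRM1 at 32.6 ± 1.54 FPKM. DTYMK (16.1 ± 2.34 FPKM), RRM2 (14.3 ± 5.26 FPKM) and RRM2B (12.4 ± 1.81 FPKM) came next, and the ranges of each neighbouring pair among these 3 overlapped. DUT was at 5.80 ± 0.635 FPKM and SAMHD1 was lowest, at 1.41 ± 0.519 FPKM. In the Activin libraries TK1 remained the highest at 75.8 ± 14.3 FPKM, and TYMS fell into the range of RRM2, with 24.3 ± 2.21 FPKM for TYMS and 24.9 ± 14.5 FPKM for RRM2. The levels of UNG, RRM2B, RRM1 and DTYMK, from 16.3 down to 10.2 FPKM in this group, overlapped from each to the next. In the Activin+HGF libraries the order was TK1 at 44.6 ± 5.71 FPKM, then UNG at 19.2 ± 3.33 FPKM and TYMS at 15.3 ± 3.93 FPKM, which overlapped. RRM2B, RRM1, RRM2, DTYMK and DUT followed between 10.1 and 4.41 FPKM with each overlapping the next, and SAMHD1 stayed the lowest at 0.733 ± 0.125 FPKM. The FPKM of RRM2 rest on a wider gene model than those of the other members. Its counts and FPKM imply a length of 10734 bp against 5323 bp of exons in GENCODE 29, 1.72 times the ratio of the median gene, whereas the other 8 members were at 0.961 to 1.01 times. Its row also spans 10120698 to 10210597 on chromosome 2, while RRM2 ends at 10131419 in GENCODE 29, so its counts can include reads from outside the annotated gene. Their part in the level of RRM2 and in its differences between groups was not tested.

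**Figure D1:**
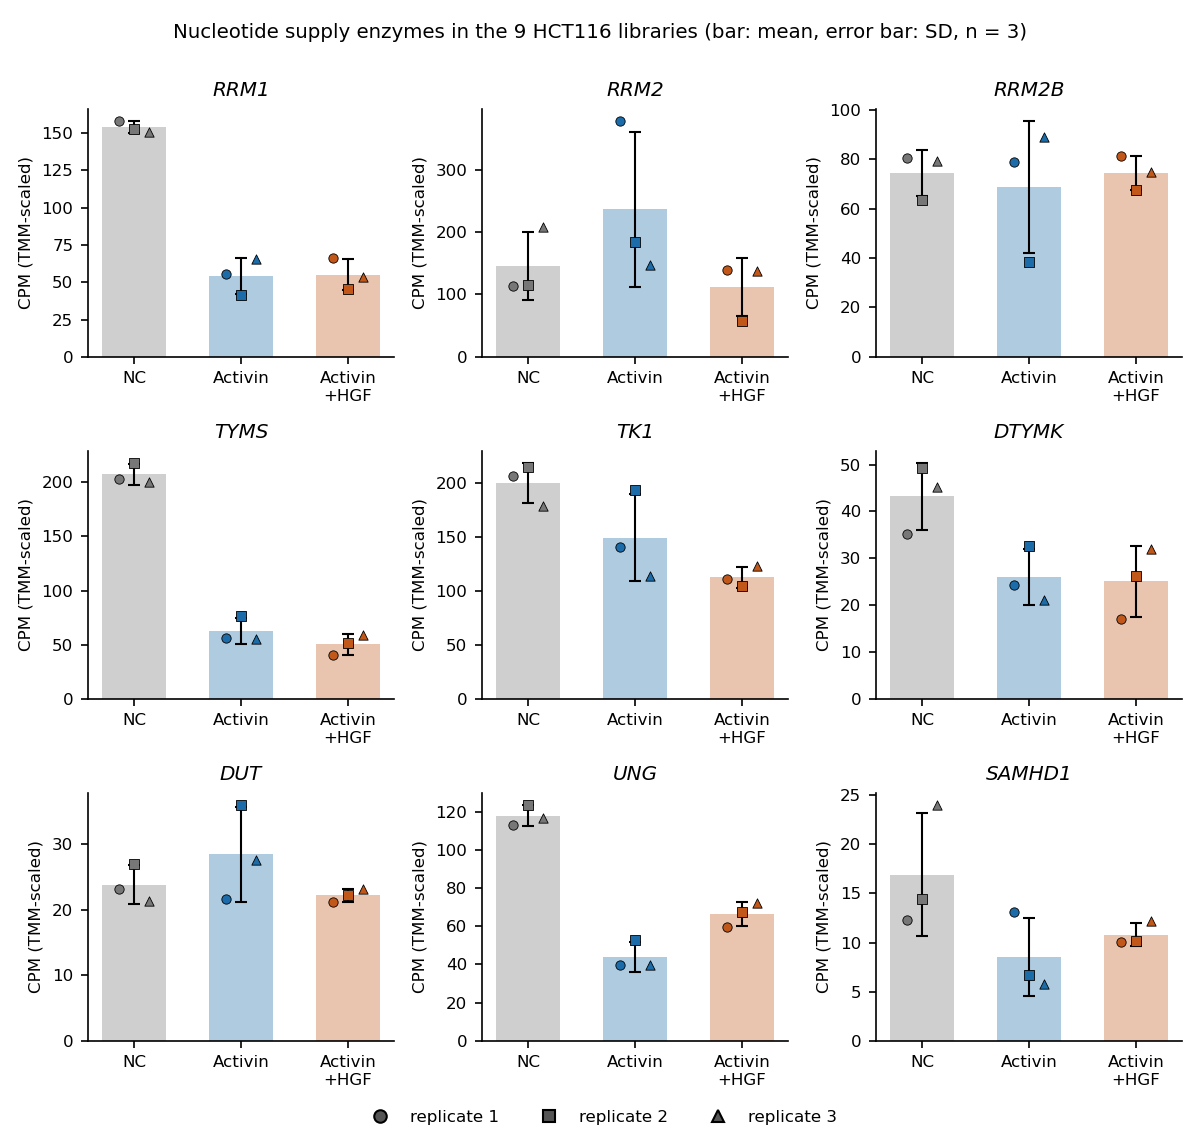
TMM-scaled CPM of the 9 members (vertical axes, each from 0) in the NC, Activin and Activin+HGF groups. Bars are means of 3 libraries, error bars SD, and each symbol is 1 library, marked by its replicate number. TYMS, RRM1 and UNG were separated from NC in both treated groups, while RRM2 and RRM2B spread widely within the Activin group.

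The first comparison asked how the enzymes differed after activin alone. Of the 9 members, 3 passed the test, all lower in Activin (edgeR quasi-likelihood test, Benjamini-Hochberg adjusted p under 0.05), where 18.0% of the 20988 genes tested passed in either direction, 8.41% as lower and 9.58% as higher. All 3 differed by more than 2-fold, a condition met together with the test by 11.4% of genes. The median log2 fold change of the members was −0.73, against 0.02 for all genes tested. The groups did not overlap in CPM for 4 of the 9 members, beside 42.2% of all genes tested. RNA of these bulk libraries cannot tell fewer cells in S phase from less mRNA per cell.

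TYMS, which methylates dUMP to dTMP, lies on chromosome 18 from 657653 to 673578 on the plus strand (ENSG00000176890, coordinates of the table). It had 203, 218 and 201 CPM in the 3 NC libraries, 56.4, 76.0 and 55.6 CPM in Activin, and 40.4, 51.3 and 59.1 CPM in Activin+HGF. Every treated library was below every NC library, and the treated groups overlapped. TYMS fell by 1.73 on the log2 scale in Activin (SE 0.196, edgeR adjusted p = 0.000355), to a level 3.31 times lower. ENOSF1, which runs antisense across the end of TYMS, had 17907 counts over the 9 libraries against 65841 for TYMS, and whether counting used strand is not stated, so their shared reads cannot be told apart. ENOSF1 itself was at −0.55 (edgeR adjusted p = 0.0888).

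RRM1, the catalytic large subunit, lies on chromosome 11 from 4094707 to 4138875 on the plus strand (ENSG00000167325). Its level was 158, 153 and 150.5 CPM in NC, 55.4, 41.3 and 65.7 CPM in Activin, and 66.1, 45.6 and 53.6 CPM in Activin+HGF. Every treated library was far below the lowest NC library, and the treated groups overlapped. RRM1 fell by 1.51 on the log2 scale in Activin (SE 0.208, edgeR adjusted p = 0.00104), which is 2.84 times lower.

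UNG lies on chromosome 12 from 109097597 to 109110992 on the plus strand (ENSG00000076248) and encodes the nuclear and mitochondrial forms of uracil-DNA glycosylase. NC libraries had 113, 124 and 117 CPM, Activin libraries 39.5, 52.99 and 39.5 CPM, and Activin+HGF libraries 59.9, 67.4 and 72.4 CPM. The 3 groups did not overlap, and Activin+HGF lay between the others. UNG fell by 1.42 on the log2 scale in Activin (SE 0.173, edgeR adjusted p = 0.000503), 2.68 times lower.

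The other members of the thymidylate route were lower in mean but did not pass. TK1 had 207, 215 and 179 CPM in NC and 140.3, 193 and 114 CPM in Activin, where replicate 2 lay within the NC range (log2 fold change −0.42, SE 0.202, edgeR adjusted p = 0.183). DTYMK had 35.3, 49.3 and 45.2 CPM in NC and 24.3, 32.6 and 21.1 CPM in Activin, without overlap (log2 fold change −0.73, SE 0.262, edgeR adjusted p = 0.0799). Without Activin replicate 2, TK1 was at −0.66 and DTYMK at −0.93. Both then passed, with edgeR adjusted p of 0.0180 and 0.0467, which raised the count of members that passed to 5. With any other library of the 2 groups left out neither passed (edgeR adjusted p up to 0.487 for TK1 and 0.257 for DTYMK). DTYMK also passed with all libraries under DESeq2 (adjusted p = 0.0473) and under an offset for gene length (edgeR adjusted p = 0.0459).

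Neither small subunit passed the test in this comparison. The counts of RRM2 rest on the wide gene model described above, and the part of that model in the values below was not tested. RRM2 had 114, 115 and 208 CPM in NC and 379, 184 and 147 CPM in Activin. Activin replicate 1 was far above the other libraries and replicate 3 lay within the NC range, and the fitted difference was 0.70 on the log2 scale (SE 0.425, edgeR adjusted p = 0.302). Without Activin replicate 1 it was 0.21. RRM2B had 80.7, 63.7 and 79.1 CPM in NC and 79.0, 38.5 and 89.1 CPM in Activin, where only replicate 2 lay outside the NC range on the low side and replicate 3 exceeded it (log2 fold change −0.11, SE 0.272, edgeR adjusted p = 0.830).

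DUT, which removes dUTP, and SAMHD1, which hydrolyses deoxynucleoside triphosphates, did not pass either. DUT had 23.2, 27.0 and 21.3 CPM in NC and 21.7, 36.1 and 27.6 CPM in Activin, with overlap (log2 fold change 0.26, SE 0.208, edgeR adjusted p = 0.456). SAMHD1 had 12.3, 14.5 and 24.0 CPM in NC and 13.1, 6.68 and 5.80 CPM in Activin, where replicate 1 overlapped NC (log2 fold change −0.99, SE 0.347, edgeR adjusted p = 0.0756). Without that replicate the difference was −1.41 and passed, with an adjusted p of 0.0224. With any other library of the 2 groups left out it did not pass, at −1.12 to −0.65 (edgeR adjusted p 0.101 to 0.300).

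**Figure D2:**
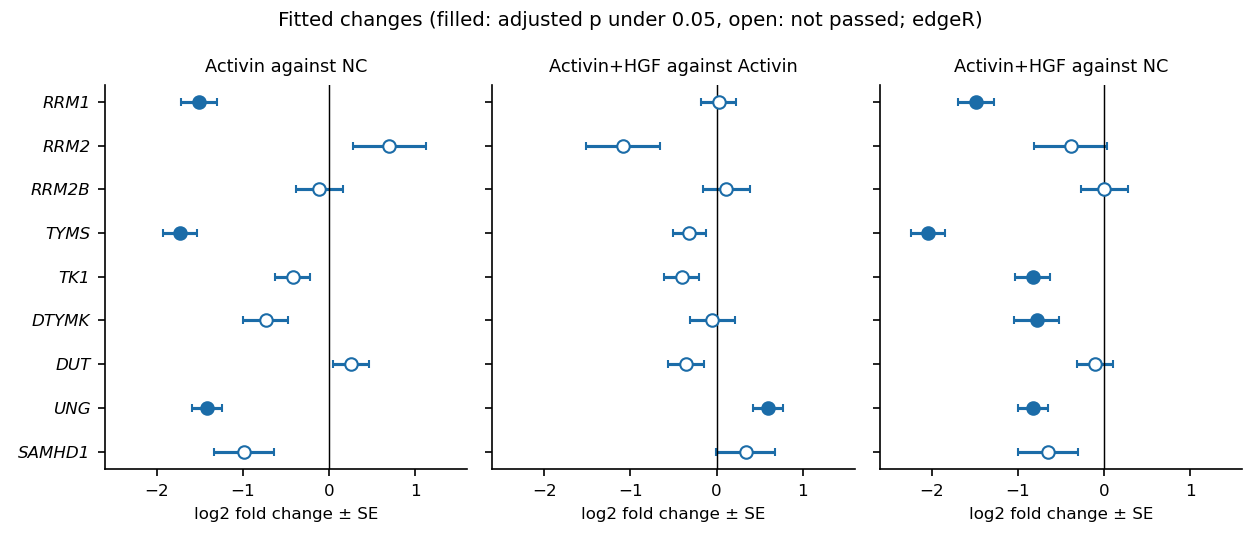
Fitted log2 fold changes of the 9 members (horizontal axes, with their standard errors as bars) in the 3 comparisons, first group named minus the second. Filled points passed at an adjusted p under 0.05 and open points did not. TYMS, RRM1 and UNG stand left of zero in both comparisons with NC, and only UNG passed between the treated groups.

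The second comparison asked what differed when HGF followed activin. Of the 9 members 1 passed, UNG, which was higher in Activin+HGF, beside 12.9% of all genes tested that passed, 7.41% as higher and 5.45% as lower. None of the members combined the test with a 2-fold difference, which 8.09% of genes did. The groups did not overlap for 2 members, UNG and RRM2, beside 32.7% of genes. The median over the members was −0.05 and over all genes tested −0.04.

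UNG rose by 0.60 on the log2 scale (SE 0.170, edgeR adjusted p = 0.0447), from 44.0 ± 7.78 to 66.6 ± 6.28 CPM (SD, n = 3), which is 1.51-fold. It stayed below NC, by 0.82 on the log2 scale (SE 0.171, edgeR adjusted p = 0.00502). The rise was close to the threshold and was lost in 12 of the 16 alternative settings. With library totals in place of TMM it was 0.27, beside a median of −0.38 over all genes, and no member passed as higher while RRM2, TK1 and DUT passed as lower. Without Activin replicate 1 or 3, or Activin+HGF replicate 2 or 3, UNG was at 0.45 to 0.59 and did not pass.

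RRM2 had 139, 57.5 and 138 CPM in Activin+HGF, all under the lowest Activin library at 147 CPM. The difference from Activin was −1.09 on the log2 scale and did not pass (SE 0.428, edgeR adjusted p = 0.118). With DESeq2, RRM2 was at −1.10 with an adjusted p of 0.0478. It was the member with the highest coefficient of variation in every group, 37.1% in NC, 52.7% in Activin and 41.9% in Activin+HGF.

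The Activin and Activin+HGF libraries also differed in how counts depended on gene length. Of 12083 genes cut by length into 4 equal bins, the median deviation from the mean of all libraries in the longest bin, minus that in the shortest bin, was 0.06 to 0.19 in NC, 0.41 and 0.27 in Activin replicates 1 and 3, −0.27 in Activin replicate 2 and −0.39 to −0.23 in Activin+HGF, on the log2 scale. With an offset for length, TK1 was at −0.70 (edgeR adjusted p = 0.0257) and TYMS at −0.53 (edgeR adjusted p = 0.0492) in Activin+HGF against Activin, while UNG was at 0.40 and did not pass (edgeR adjusted p = 0.0733). Without the offset, TK1 was at −0.41 (adjusted p = 0.206) and TYMS at −0.32 (adjusted p = 0.294).

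The remaining members stayed near zero or within their spread between the treated groups. RRM1 was at 0.03 and DTYMK at −0.05, and their signs turned under some settings. RRM2B had 81.3, 67.4 and 74.9 CPM in Activin+HGF, within the Activin range, and was at 0.11 (SE 0.273). DUT had 21.2, 22.2 and 23.1 CPM in Activin+HGF and was at −0.36 (SE 0.209). SAMHD1 had 10.0, 10.2 and 12.2 CPM, within the Activin range, and was at 0.34 (SE 0.344).

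The last comparison set the sequential treatment against NC and shares its libraries with the other two. Of the 9 members 5 passed, all lower in Activin+HGF, beside 31.4% of all genes tested that passed in either direction, 15.0% as lower and 16.4% as higher. TYMS and RRM1 also differed by more than 2-fold, a condition met together with the test by 21.5% of genes. The median was −0.78 over the members and −0.03 over all genes tested. The groups did not overlap for 6 members, beside 53.8% of genes.

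TYMS fell by 2.04 on the log2 scale (SE 0.198, edgeR adjusted p = 8.37e-05), 4.12 times lower than NC. ENOSF1 fell by 1.89 in the same comparison (edgeR adjusted p = 0.000176). RRM1 fell by 1.48 (SE 0.208, edgeR adjusted p = 0.000641). TK1 had 111, 104 and 123 CPM in Activin+HGF, all below the lowest NC library at 179 CPM, and fell by 0.83 on the log2 scale (SE 0.203, edgeR adjusted p = 0.0114). DTYMK had 17.0, 26.3 and 32.1 CPM, also below every NC library, and fell by 0.78 (SE 0.262, edgeR adjusted p = 0.0439). This call was lost without NC replicate 2 or 3, or without Activin+HGF replicate 1 or 2, at −0.82 to −0.57, and when no filter on low counts was used. The falls of TYMS, RRM1 and UNG against NC in both treated groups, and that of TK1 in Activin+HGF, passed in all 16 alternative settings.

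The last 4 members did not pass against NC. RRM2 was at −0.39 (SE 0.424) and overlapped NC. RRM2B was at 0.00 (SE 0.272), with means of 74.5 ± 6.96 CPM in Activin+HGF and 74.5 ± 9.42 CPM in NC. DUT was at −0.10 (SE 0.208). SAMHD1 lay below NC without overlap, 10.0 to 12.2 against 12.3 to 24.0 CPM, at −0.65 (SE 0.345, edgeR adjusted p = 0.179).

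Ratios between pairs of members were then compared within each library, in FPKM, so that library scaling cancels. The trend with gene length described above does not cancel between genes of unlike length, and its part in the ratios was not tested. Each of the 4 ratios was compared across the 3 groups by an exact permutation test of the F statistic, whose smallest possible p is 0.00357 (280 arrangements). With 3 libraries against 3, a single pair of groups cannot give an exact two-sided p below 0.1.

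The ratio of DUT to UNG was 0.142, 0.151 and 0.126 in NC, 0.379, 0.471 and 0.484 in Activin, and 0.245, 0.227 and 0.221 in Activin+HGF. The 3 groups were separate, highest in Activin and lowest in NC. The exact permutation p was 0.00357, the smallest the design allows, or 0.0143 after Benjamini-Hochberg adjustment over the 4 ratios. The geometric mean was 3.18-fold higher in Activin than in NC (log2 difference 1.67, SE 0.135).

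RRM2 to RRM1, the small to the large subunit, was 0.332, 0.348 and 0.639 in NC, 3.16, 2.05 and 1.03 in Activin, and 0.971, 0.583 and 1.19 in Activin+HGF. Every Activin library was above every NC library, and Activin+HGF overlapped both. The exact permutation p over the 3 groups was 0.0179 (adjusted 0.0357), and the log2 difference between Activin and NC was 2.17 (SE 0.559). Without NC replicate 1 or NC replicate 2 the exact permutation p was 0.0571 and no longer passed. Replicate number taken as a block also left it above the threshold. The wide gene model of RRM2 described above enters these ratios, and its part in the difference between groups was not tested.

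TYMS to TK1, the de novo to the salvage route, was 0.747, 0.775 and 0.854 in NC, 0.306, 0.300 and 0.372 in Activin, and 0.278, 0.376 and 0.366 in Activin+HGF. NC was separate from both treated groups, which overlapped. The exact permutation p was 0.0321 (adjusted 0.0429). With replicate number taken as a block, the ratio no longer passed. The ratio was 2.44 times lower in Activin than in NC (log2 difference −1.29, SE 0.114).

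RRM2 to RRM2B, the cycling to the p53-dependent small subunit, was 0.831, 1.06 and 1.55 in NC, 2.82, 2.81 and 0.970 in Activin, and 1.01, 0.502 and 1.08 in Activin+HGF. All groups overlapped, and the exact permutation p was 0.139. With each library left out in turn, the same exact test gave p from 0.0357, without Activin replicate 3, to 0.382. The ratio of Activin replicate 3 lay within the NC range.

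**Figure D3:**
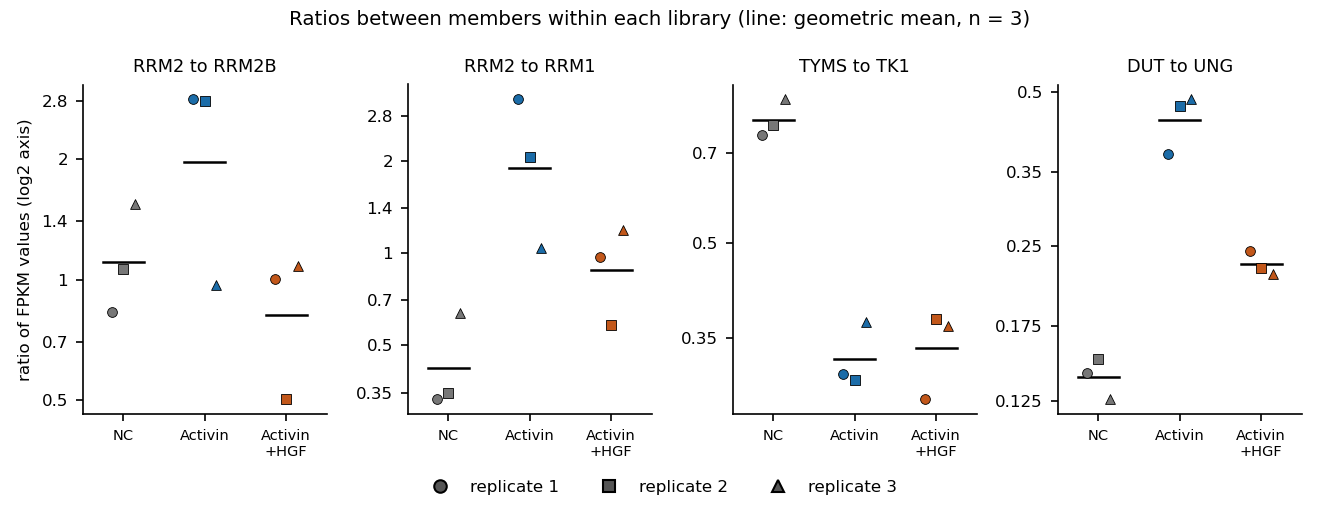
FPKM ratios of 4 pairs of members (vertical axes on a log2 scale) in each library of the 3 groups, with the geometric mean of 3 libraries as a line. DUT to UNG separates all 3 groups, TYMS to TK1 separates NC from both treated groups, and the 2 ratios with RRM2 spread over a wide range in Activin.

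The members were set beside 55 other genes of nucleotide metabolism. Genes of base excision repair are not among these 55 and were counted separately. In Activin against NC, 8 of these 55 rose and 13 fell (14.5% and 23.6%), by the same edgeR test and threshold as the members, beside 9.58% and 8.41% of all genes tested. Against NC, the Activin+HGF libraries had 11 that rose and 16 that fell (20.0% and 29.1%), beside 16.4% and 15.0%. Between the treated groups, 4 rose and 3 fell (7.27% and 5.45%), which is close to the shares of all genes, 7.41% and 5.45%. The shares of all genes apply to each list described next. The median log2 fold change of the 55 genes was −0.33 in Activin against NC, 0.18 in Activin+HGF against Activin and −0.15 in Activin+HGF against NC. Over all genes tested it was 0.02, −0.04 and −0.03 in the same order. With library totals, 1 rose and 6 fell in Activin+HGF against Activin.

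The folate cycle passes TYMS its methyl group. Of 9 genes listed, 3 fell and 2 rose in Activin against NC. MTHFD1, a cytosolic enzyme that interconverts folate carriers, went from 208 ± 12.04 CPM in NC to 102 ± 6.11 CPM in Activin (SD, n = 3) and fell by 1.03 (SE 0.149, edgeR adjusted p = 0.00131). Its mitochondrial counterpart MTHFD2 rose by 0.82, from 311 ± 11.1 to 548 ± 23.1 CPM (SE 0.147, edgeR adjusted p = 0.00431). GGH, which trims the glutamate tail of folates, rose by 0.98 in Activin+HGF against Activin, although under library totals no gene of this list passed as higher there.

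Pyrimidine synthesis from small precursors, which ends in UMP and CTP, was lower in 3 of 5 genes in both comparisons with NC. CTPS1, a CTP synthase, fell by 1.50 in Activin and fell by 1.95 in Activin+HGF, each against NC. UMPS fell by 0.89 and CTPS2 fell by 1.09 in Activin. Under library totals 1 of the 5 passed in Activin against NC.

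Purine synthesis was lower in 4 of 12 genes in Activin against NC and in 7 of 12 in Activin+HGF against NC, with no gene higher in either. ATIC, which closes the purine ring, fell by 1.13 in Activin and fell by 0.87 in Activin+HGF, each against NC. GMPS fell by 0.70 and PRPS2 fell by 1.12 in Activin. In Activin+HGF against NC, ADSL fell by 1.58 and PFAS fell by 1.38. IMPDH1, which commits IMP to guanine nucleotides, rose by 0.61 in Activin+HGF against Activin (edgeR adjusted p = 0.0418), and with library totals none of the 12 passed there.

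Salvage enzymes and nucleotide kinases moved in both directions. Of 16 genes, 1 rose and 1 fell in Activin against NC, and 5 rose and 2 fell in Activin+HGF against NC. NME1, a nucleoside diphosphate kinase, fell by 1.08 in Activin, and its neighbour NME2 rose by 1.35 in Activin+HGF against NC. These genes lie side by side and are alike in sequence, so the counts assigned to each are uncertain. GUK1, the guanylate kinase, rose by 1.37 in Activin+HGF against NC. CMPK2, a mitochondrial pyrimidine kinase induced by interferon, was at 1.68 ± 0.173 CPM in NC and fell by 2.16 in Activin+HGF.

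Among the 55 related genes, the highest increases in Activin were in enzymes that break nucleotides down. Of 13 genes, 5 rose and 2 fell in Activin against NC. UPP1, which splits uridine, went from 8.28 ± 0.998 CPM in NC to 215.7 ± 38.8 CPM in Activin and 99.96 ± 8.87 CPM in Activin+HGF. It rose by 4.70 in Activin (SE 0.208, edgeR adjusted p = 2.17e-06) and then fell by 1.11 in Activin+HGF against Activin (SE 0.180, edgeR adjusted p = 0.00694). TYMP, the thymidine phosphorylase, rose by 2.16 in Activin, from 9.89 ± 0.956 to 44.0 ± 13.2 CPM. NT5E, the surface enzyme CD73 that makes adenosine from AMP, rose by 2.47, and the mitochondrial nucleotidase NT5M by 2.01 in Activin+HGF against NC.

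Base excision repair, which completes the work that UNG starts, was lower in 4 of 16 genes in Activin against NC and in 5 of 16 in Activin+HGF against NC, with none higher. The flap nuclease FEN1 fell by 1.47 and the ligase LIG1 fell by 1.49 in Activin, where PARP1 fell by 0.94. In Activin+HGF against NC, FEN1 fell by 2.20 and LIG1 fell by 1.62. NTHL1, a glycosylase for oxidised pyrimidines, fell by 1.39 in Activin against NC (edgeR adjusted p = 0.00305). It was at 0.31 in Activin+HGF against NC (edgeR adjusted p = 0.349). Between the treated groups NTHL1 rose by 1.70, from 5.58 ± 1.74 to 18.1 ± 0.603 CPM. NEIL3, a related glycosylase of dividing cells, fell by 1.45 in the same comparison.

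**Figure D4:**
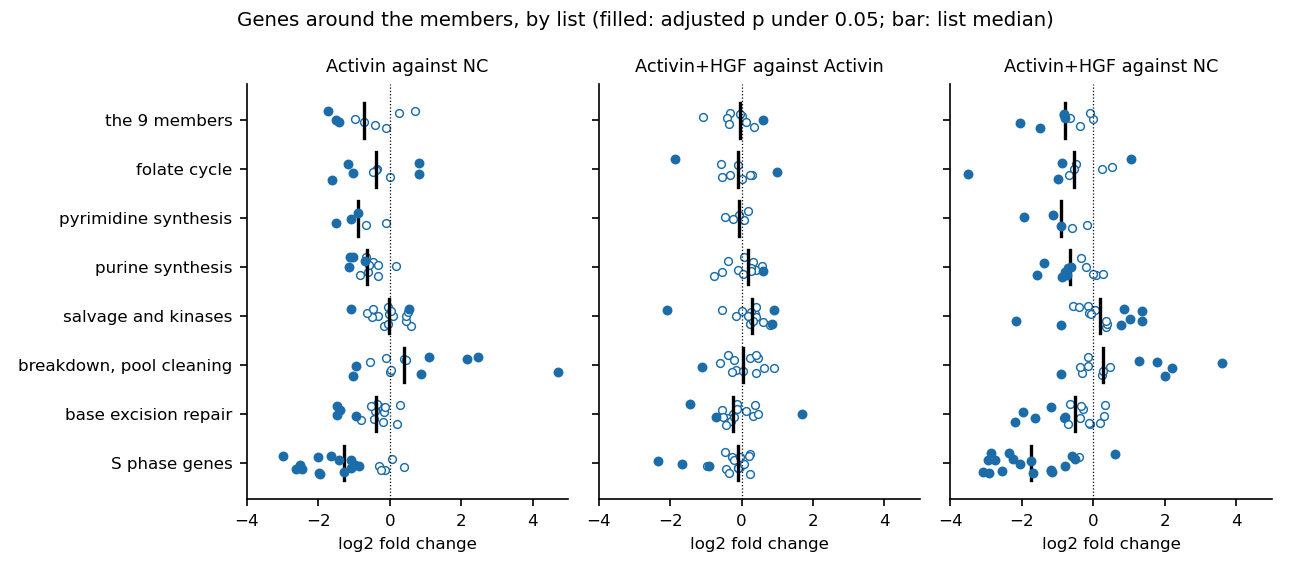
Log2 fold changes (horizontal axes) of the members and of 7 lists of related genes in the 3 comparisons, 1 point for each gene and a bar at each list median. Filled points passed at an adjusted p under 0.05. S phase genes and the synthesis lists lie mostly left of zero against NC, and UPP1 stands far right among the breakdown genes at 4.70 in Activin.

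Genes of S phase and DNA replication were counted in the same way. Of 19, 14 fell and none rose in Activin against NC, with a list median of −1.28. In Activin+HGF against NC 17 fell and CCNE1 rose by 0.60, with a median of −1.75, although CCNE1 no longer passed with library totals or the length offset. MCM4, a subunit of the replicative helicase, fell by 2.64 in Activin, from 241 ± 2.65 to 38.7 ± 5.41 CPM. PCNA, the sliding clamp, fell by 1.09 (SE 0.164, edgeR adjusted p = 0.00163) from 284 ± 10.5 to 133 ± 20.9 CPM. Between Activin+HGF and Activin 3 of the 19 fell and none rose, with a list median of −0.10 beside −0.04 over all genes. The summed level of these 19 genes was 650 to 691 FPKM in NC, 275 to 309 in Activin and 176 to 235 in Activin+HGF, but FPKM are not TMM-scaled, and on log2(FPKM + 0.1) the median of all genes was itself at −0.31 between the treated groups. The summed level was lower than NC in both treated groups, as were TYMS and RRM1. RRM2 did not pass in Activin or Activin+HGF against NC (SE 0.425 and 0.424), and its counts rest on the wide gene model described above. Whether the share of cells in S phase differed was not tested.

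RRM2B was set beside other p53 targets. Of 20 such genes, 4 rose and 4 fell in Activin against NC, and 5 rose and 5 fell in Activin+HGF against NC. CDKN1A, the cell cycle inhibitor p21, rose by 1.17 in Activin (edgeR adjusted p = 0.00303) and by 1.65 in Activin+HGF (edgeR adjusted p = 0.000281). SESN2 rose by 2.99 and GDF15 by 2.29 in Activin. MDM2, the p53 ligase, was at −0.30 in Activin (edgeR adjusted p = 0.305) and fell by 0.54 in Activin+HGF (edgeR adjusted p = 0.0473). The difference between RRM2B and these genes was not tested.

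SAMHD1 can be induced by interferon in some cells and was set beside interferon-stimulated genes. Of 19 tested, 15 rose and none fell in Activin against NC, with a list median of 3.26, and 14 fell and none rose in Activin+HGF against Activin, with a median of −2.30. IFIT1 went from 10.2 ± 0.956 CPM in NC to 97.5 ± 12.3 CPM in Activin and 3.85 ± 0.265 CPM in Activin+HGF. ISG15 rose by 3.91 in Activin. SAMHD1 did not pass in either comparison. Its mean in CPM was lowest in Activin, 8.54 ± 4.01, where replicate 1 overlapped NC. In FPKM its mean was lowest in Activin+HGF, at 0.733 against 0.757 in Activin.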

How the data were processed

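Ribosomal RNA-depleted libraries of HCT116 cells were compared, 3 each of NC, Activin and Activin+HGF, grouped by titles and treatment tags. The authors deposited whole-number counts per gene and FPKM, normalised to library size and gene length, for 33861 genes in 1 table. The submitters' processing notes list cutadapt 1.9, HISAT2 2.0.4 and StringTie 1.3.4d. The counting program, its use of strand and the genome build are not given in the sources used here. Of 32930 gene IDs shared with GENCODE 29 (GRCh38), 19821 had the same start and end. Of the deposited counts from 1 to 40, 35.0% were multiples of 4, so a count need not be 1 read. Counts per FPKM of the 8 members at 2 FPKM or more varied between libraries by at most 1.004-fold. All columns of per-library values were used, and the table's other columns (coordinates and Gene Ontology or KEGG terms) served only for positions.

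The members and lists were chosen with earlier results of these data known. Counts were tested with edgeR 4.0.16 (filterByExpr, TMM, glmQLFit, glmQLFTest, all 9 libraries, group means, no block) in R 4.3.3, with Benjamini-Hochberg adjustment over the 20988 genes tested. All 9 members passed the filter. A gene passed at an adjusted p under 0.05. Standard errors are approximate, from the fold change and the test statistic. The comparisons share libraries. Named genes were the members, up to 3 genes for each list and comparison with the smallest p among those that passed, and PCNA, CDKN1A and MDM2. A gene that meets this rule is not reported here. CCNE1 and the antisense ENOSF1 were named after their values were seen. Ratios of FPKM were tested by exact permutation. The scripts were tested on simulated data first. Alternatives were another scaling, no filter, a replicate block, only the 2 groups compared, DESeq2 1.42.0, limma 3.58.1 on log2(FPKM + 0.1) and log2(FPKM + 1), and each library left out. An offset for gene length was added after seeing the data. Python 3.11.15 was also used. Depth was 57453977 to 77016167 counts per library, and the 3 libraries per group limit the precision. Promoter sequences of 8 members were read from the RefSeq table.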

Additional observations from a re-analysis of the deposited data

How the results depend on the processing

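Among the member values, 26 changed sign under an alternative setting, and none of them passed the test at any sign. In Activin+HGF against Activin, RRM1 turned from 0.03 to −0.35 with library totals, −0.015 with only the 2 groups compared, −0.34 and −0.32 with limma on log2(FPKM + 0.1) and log2(FPKM + 1), −0.040 with the length offset and −0.036 with the length offset and the replicate block. RRM2B turned there from 0.11 to −0.27 with library totals and to −0.18 and −0.18 with limma at either pseudocount, and SAMHD1 from 0.34 to −0.023 with library totals. Against NC, RRM2B of Activin+HGF turned from 0.00 to −0.28 with library totals, −0.012 without a filter, −0.0026 with DESeq2, and −0.29 and −0.27 with limma. Of the alternative values of the members, 368 kept direction and side of the threshold, 21 passed where the reported value did not, and 17 no longer passed.

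In Activin+HGF against Activin, 2698 genes passed, but 714 with only the 2 groups compared, 4540 with DESeq2 and 1624 with the length offset and the replicate block. The count of members that passed there, 1, was 3 with library totals, 0 with no filter, 0 with the replicate block, 0 with only the 2 groups compared, 2 with DESeq2, 4 and 4 with limma at either pseudocount and 2 with the length offset. The 55 related genes held 7 that passed, but 2 with only the 2 groups, 11 with DESeq2, 11 with limma on log2(FPKM + 1) and 3 with the length offset and the replicate block. In Activin against NC, 5 members passed with DESeq2, which added DTYMK and SAMHD1. Of all genes that passed, 57.6% were higher in Activin+HGF against Activin with TMM and 22.3% with library totals, 53.2% and 63.5% in Activin against NC, and 52.3% and 36.3% in Activin+HGF against NC. The causes were not tested.

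When each library was left out in turn, where a group left with 2 libraries shares the spread of the others, the genes that passed numbered 2021 to 4124 (3776 with all libraries), 686 to 4533 and 4260 to 5670 (6587 with all) in the 3 comparisons in the order of the report. The lowest and highest counts of the middle comparison came without Activin replicate 1 and without Activin replicate 2. Members that passed numbered 3 to 5, 0 to 1 and 4 to 5, and related genes 11 to 26, 3 to 16 and 23 to 25. RRM2B ranged from −0.28 to 0.17 in Activin against NC, from −0.17 to 0.25 in Activin+HGF against Activin and from −0.14 to 0.066 in Activin+HGF against NC. Between the treated groups RRM1 ranged from −0.14 to 0.15 and DTYMK from −0.26 to 0.17.

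The ratios ranged as log2 differences in the same order of comparisons, again with each library left out. RRM2 to RRM2B ranged from 0.57 to 1.34, −1.78 to −0.92 and −0.65 to −0.09, RRM2 to RRM1 from 1.79 to 2.60, −1.54 to −0.73 and 0.84 to 1.36, and TYMS to TK1 from −1.39 to −1.23, −0.022 to 0.19 and −1.31 to −1.09.

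Deviations of same-numbered libraries had r of −0.14 to 0.269. Differently numbered libraries were not compared, so these values cannot decide whether replicate numbers pair the libraries. With the replicate block, 3362, 2044 and 6088 genes passed. RRM2 to RRM1 no longer passed under the block (exact permutation p = 0.0556, log2 differences 2.17, −1.11 and 1.06), nor did TYMS to TK1 (exact permutation p = 0.111, log2 differences −1.29, 0.056 and −1.23).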

Other observations

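Over the 9 libraries, Pearson r of log2 CPM was 0.888 for TYMS with RRM1, 0.879 with DTYMK, 0.870 with TK1 and 0.842 with UNG. Among the other pairs of RRM1, TK1, DTYMK and UNG it ran from 0.611 (TK1 with UNG) to 0.807 (RRM1 with UNG). SAMHD1 had r of 0.693 with UNG, 0.635 with RRM1 and 0.357 with TK1. RRM2 had r of −0.02 with RRM1 and −0.01 with TYMS, and RRM2B had r of 0.35 with RRM1 and −0.78 with DUT. These values are descriptions over 9 libraries of 3 groups, so group differences, depth and the length trend of the libraries enter all of them.

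Among 9843 genes with a symbol and a mean of at least 10 CPM, the 3 with the highest r to TYMS were TMEM248 at 0.993, the histone chaperone subunit SSRP1 at 0.992 and CTPS1 at 0.992. SSRP1 had mean levels of 493, 187 and 181 CPM in NC, Activin and Activin+HGF. For RRM2 they were SMG1P1 at 0.955, RAD54L2 at 0.843 and FIGNL1 at 0.836, and SMG1P1 is a pseudogene with close copies, so its counts are uncertain. For RRM2B they were HNRNPH3 at 0.981, the origin recognition subunit ORC4 at 0.977 and RFX3 at 0.972, all with means that stayed near those of NC in every group. For SAMHD1 they were the mitochondrial ribosomal protein MRPL3 at 0.950, GALNT1 at 0.945 and MRPS27 at 0.902.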
